A study of Mus musculus with 24 samples.

Results

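Poly(A) RNA-seq of wild-type (WT) JB4/EI7HZ2 mouse cells was compared between neural stem cells (NSCs) and day 9 cells of neural differentiation, with 3 libraries of each. The genes compared were all those listed outside chromosomes X and Y with a mean level of at least 1 FPKM over these 6 libraries, which were 11808 of the 23119 genes listed. FPKM (fragments mapped to a gene, divided by its length and by the depth of the library) is a level per length, so that the levels of different genes can be set side by side. Of the other genes outside X and Y, 5221 were at 0 in all 6 libraries and 4999 had a mean above 0 but below 1 FPKM.

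JB4/EI7HZ2 is a female embryonic stem cell (mESC) line with a JF1 mother and a B6 father, grown under drug selection for both of its X chromosomes. Day 9 cells had passed through an epiblast-like stage with Activin A and FGF2 and then grown as floating aggregates in a medium with serum replacement, and the labels call them embryoid bodies. NSCs came by another protocol, first as an adherent serum-free culture, then as aggregates with FGF2 and EGF, and finally as an adherent line on gelatin in a medium with N2 supplement, insulin, FGF2 and EGF. The NSCs therefore did not grow out of the day 9 cells, and the difference in stage cannot be told apart from the differences in medium, substrate and time in culture. All WT libraries came from 1 cell line, and the study's methods speak of biologically independent experiments without saying how far back each was separate. Libraries of a SmcHD1-mutant line (KO) made from the same mESCs, 3 at day 9 and 3 from NSCs, were compared between the stages and with WT. All 24 libraries in 8 groups, WT and KO, entered the fit, so that the KO libraries also share in the spread behind every WT test.

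NSCs in culture are dividing progenitors that resemble the radial glia of the developing brain, depend on FGF2 and EGF, and can form neurons, astrocytes and oligodendrocytes. Day 9 aggregates hold early neurectoderm, the neural plate and tube stage in which retinoic acid, Sonic hedgehog, Wnt and BMP signals give cells a position along the axes of the body and in which the first neurons appear. Several regulators of this early stage, such as LIN28 and HMGA2, are known targets of the let-7 microRNAs, which accumulate as progenitors mature.

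The depth of the 6 libraries differed little. The low-gene steps in the FPKM values gave relative read numbers within 1.109 times of each other, and 1 read was worth a median of 0.184 to 0.205 FPKM for a transcript of 1 kb. Between 61 and 69 of the compared genes were at 0 in each day 9 library and between 289 and 307 in each NSC library. WT NSC replicate 1 stood apart from the other NSC libraries: its correlation with them over the compared genes was 0.950 and 0.960, against 0.980 between NSC replicates 2 and 3 and 0.980 to 0.985 among the day 9 libraries. In it 809 genes lay at least 2-fold from the mean of the other NSC libraries, 287 above and 522 below, against 318 and 191 genes for NSC replicates 2 and 3. Where leaving out this library turned the call of a gene described below or moved the rises, the falls or all calls of a gene list by over 1.5 times (also from or to none), both values are given. The locus of 1725 compared genes overlaps that of another listed gene with reads, and for these, Sox1, Sox2, Lims2, Fgf1, Erbb2, Pcdh10, Grin3a, Mdk, Dnmt3l, Hmga2, Nkx6-2, Shh, Phox2a, Gli1, Nefm, Tagln, Ltbp3, Igf2r, Hk1, Me1, Slc6a9, Rpl5, Smarca2, Gnas, Ctsz and Rab3b among the genes named below, reads of the partners may not be told apart.

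On the log2(FPKM + 1) scale, 6628 of the 11808 genes (56.1%) passed the limma test at an adjusted p under 0.05, 3102 (26.3%) being higher in NSCs and 3526 (29.9%) lower. The 3 NSC libraries and the 3 day 9 libraries did not overlap for 6930 genes (58.7%). The median log2 fold change of all compared genes was -0.04. With the libraries scaled to the same sum of FPKM the split turned over, with 3396 genes higher and 3090 lower in NSCs. Of the called genes 1109 rose and 1489 fell by at least 1 on the log2 scale, and 128 rose and 226 fell by at least 3. Of the genes that rose 15 were listed at 0 in all day 9 libraries, and of those that fell 151 were listed at 0 in all NSC libraries. Without NSC replicate 1 the test called 7007 genes, 3244 higher and 3763 lower, and 6127 genes were called in the same direction in both fits. As most genes changed, each count of a gene group below is to be read against these shares. A gene below 1 FPKM in one stage could pass the level filter only through the other stage and had to differ, so that for groups with at least 30% of such members the counts with no filter are given as well. Those counts are to be read against 3345 genes higher and 4531 lower of the 16807 genes tested with no filter. In bulk samples, fewer cells of a type and less RNA per cell cannot be told apart.

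The largest rise was that of Olig1 (chr16:91270014-91272184, mm9), a basic helix-loop-helix factor of oligodendrocyte progenitors. It stood at 0.435, 0.802 and 0.635 FPKM in the day 9 libraries and 1107, 1155 and 1100.5 FPKM in the NSC libraries, a log2 fold change of 9.44 ± 0.25 (SE, adjusted p = 1.97e-17). Its neighbour Olig2 (chr16:91225795-91228922), which also marks cultured NSCs, stood at 3.22, 6.36 and 8.55 FPKM in the day 9 libraries and 364, 303 and 346 FPKM in the NSC libraries (log2 fold change 5.66 ± 0.31 (SE), adjusted p = 1.96e-12). All NSC libraries lay far above all day 9 libraries for both genes. Among the 12 largest rises were the matrix genes Bcan, which encodes the proteoglycan brevican, and Tnc, which encodes tenascin C. Bcan stood at 0.207, 0.424 and 0.117 FPKM in the day 9 libraries and 233, 383 and 309 FPKM in the NSC libraries (log2 fold change 7.93 ± 0.16 (SE), adjusted p = 1.11e-19). Tnc stood at 0.224, 1.68 and 0.750 FPKM in the day 9 libraries and 230.5, 183 and 245 FPKM in the NSC libraries (log2 fold change 6.93 ± 0.20 (SE), adjusted p = 5.72e-17). Both were low at day 9 and among the well expressed genes in every NSC library.

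The other large rises were the epoxide hydrolase gene Ephx1 (mean ± SD from 1.32 ± 0.255 to 208 ± 31.6 FPKM, n = 3 each), the protease inhibitor gene Serpine2 (from 16.7 ± 1.60 to 982 ± 183 FPKM), the peptide transporter gene Slc15a2 (from 0.107 ± 0.0518 to 47.4 ± 16.0 FPKM), the growth factor gene Gas6 (from 1.98 ± 0.387 to 124 ± 23.9 FPKM) and 4 genes of astrocytes. Of the latter, Slc6a11, a GABA transporter gene, stood at 0.222, 0.318 and 0.370 FPKM in the day 9 libraries and 17.2, 143 and 108 FPKM in the NSC libraries (log2 fold change 5.66 ± 0.45 (SE), adjusted p = 8.24e-10), so that NSC replicate 1 was well below the other NSC libraries and still above every day 9 library. Mlc1, which encodes a membrane protein of astrocytes, rose from 0.929 ± 0.244 to 96.7 ± 43.7 FPKM, the transcription factor gene Nfix rose from 0.0724 ± 0.00150 to 46.0 ± 13.4 FPKM. Acsbg1, an acyl-CoA synthetase gene, rose from 2.48 ± 0.802 to 133 ± 23.0 FPKM.

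The largest falls were those of the retinoic acid binding proteins and of a group of early embryonic, neuronal and epithelial genes. Crabp1 (chr9:54612615-54620916) stood at 1703, 1462 and 1649 FPKM in the day 9 libraries and 3.53, 0.331 and 1.31 FPKM in the NSC libraries (log2 fold change -9.38 ± 0.77 (SE), adjusted p = 1.45e-08). Crabp2 stood at 632, 459 and 528 FPKM in the day 9 libraries and 0.272, 0.256 and 0.506 FPKM in the NSC libraries (log2 fold change -8.64 ± 0.25 (SE), adjusted p = 8.36e-17). Both encode cellular retinoic acid binding proteins, were among the abundant transcripts of day 9 cells and were low in every NSC library. The imprinted non-coding RNA H19 stood at 562, 1166 and 1137 FPKM in the day 9 libraries and 1.02, 1.11 and 0.805 FPKM in the NSC libraries (log2 fold change -8.84 ± 0.37 (SE), adjusted p = 1.57e-13), and day 9 replicate 1 was the lowest day 9 library. The list of the 12 largest falls also held Dppa5a (pluripotency), Nefl, Nefm and Stmn2 (neurons), Meg3 and Rian (imprinted), Krt8 and Krt18 (simple epithelium) and Igdcc3, an immunoglobulin superfamily gene, which are described with their groups below.

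**Figure D1:**
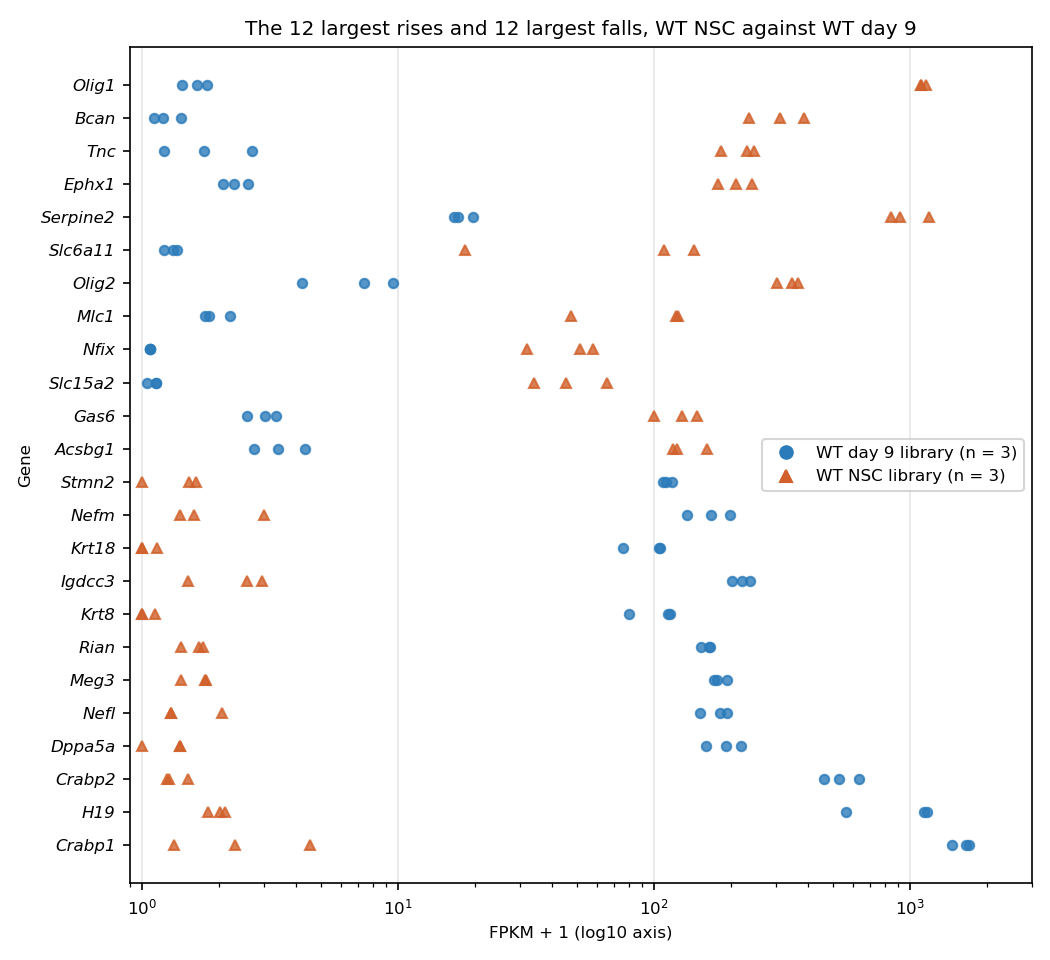
Each row is a gene and each point a library, with FPKM + 1 on a log10 axis, circles for WT day 9 and triangles for WT NSC. In all 24 rows the 3 NSC libraries lie apart from the 3 day 9 libraries, and the NSC library nearest to day 9 for Slc6a11 is replicate 1 with 17.2, 143 and 108 FPKM in NSC replicates 1 to 3.

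The identity of both cultures was checked with the 17 markers named in the study that lie outside X. Gata4, Gata6 and Tbx6, which mark endoderm or mesoderm, were below the level filter, so that 14 were tested. Of the NSC markers, Olig2 rose as above, the fatty acid binding protein gene Fabp7 stood at 397, 373 and 319 FPKM in the day 9 libraries and 3264, 4998 and 3325 FPKM in the NSC libraries (log2 fold change 3.38 ± 0.24 (SE), adjusted p = 1.02e-10). The intermediate filament gene Vim stood at 1019.5, 839.5 and 808 FPKM in the day 9 libraries and 1448, 1287 and 1417 FPKM in the NSC libraries (log2 fold change 0.64 ± 0.16 (SE), adjusted p = 0.0014). Fabp7 was already abundant at day 9 and was one of the 6 most abundant genes of NSCs. Nes, which encodes nestin, stood at 107, 117 and 106 FPKM in the day 9 libraries and 267, 97.5 and 115 FPKM in the NSC libraries and was not called (adjusted p = 0.20). NSC replicate 1 was above the day 9 libraries, and the other NSC libraries lay within or near the day 9 range.

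The ectoderm markers divided. The zinc finger gene Zfp521 rose from 9.78 ± 0.391 to 15.2 ± 2.59 FPKM (adjusted p = 3.15e-04). Sox1 fell from 27.7 ± 4.55 to 1.87 ± 0.677 FPKM (adjusted p = 2.16e-12), Col4a1 fell from 39.8 ± 12.2 to 10.9 ± 1.76 FPKM (adjusted p = 2.40e-06). Pax6 stood at 54.6, 26.0 and 29.9 FPKM in the day 9 libraries and 15.1, 27.1 and 24.5 FPKM in the NSC libraries (adjusted p = 0.021, 0.14 without NSC replicate 1 and 0.20 without day 9 replicate 1, and 0.12 in a fit of the 6 libraries alone). The day 9 and NSC libraries overlapped for Pax6. Sox2, which both pluripotent and neural cells use, stood at 165, 136 and 142 FPKM in the day 9 libraries and 139, 204 and 211 FPKM in the NSC libraries and was not called (adjusted p = 0.061). Without NSC replicate 1 it was called, at a log2 fold change of 0.49 (adjusted p = 9.66e-04). Its locus overlaps Mir1897 and Sox2ot, whose reads may not be told apart from its own. The pluripotency markers Pou5f1, Nanog and Fgf4 and the mesoderm marker Snai1 fell in NSCs.

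Most tested genes of radial glia and of glia rose. In the list of NSC and radial glia genes 14 of 23 tested members rose, 5 fell and 4 were not called, with a median log2 fold change of 0.64. Ptprz1, which encodes a receptor phosphatase that binds tenascins and pleiotrophin, stood at 4.83, 4.17 and 3.29 FPKM in the day 9 libraries and 142, 228 and 185 FPKM in the NSC libraries (log2 fold change 5.17 ± 0.16 (SE), adjusted p = 9.00e-17). Slc1a3, the glutamate transporter gene of radial glia and astrocytes, stood at 24.4, 28.1 and 26.4 FPKM in the day 9 libraries and 169, 342 and 379.5 FPKM in the NSC libraries (log2 fold change 3.37 ± 0.25 (SE), adjusted p = 1.70e-10). For both genes every NSC library was at least several times above every day 9 library. Hes5, a Notch target gene, stood at 80.5, 49.0 and 46.7 FPKM in the day 9 libraries and 15.3, 157 and 81.6 FPKM in the NSC libraries. NSC replicate 1 lay below and NSC replicates 2 and 3 lay above the day 9 libraries, and the gene was not called with all libraries (adjusted p = 0.95) but was called without NSC replicate 1 (log2 fold change 0.98, adjusted p = 0.026).

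Of the astroglia genes 14 of 18 tested members rose, 1 fell and 3 were not called, with a median log2 fold change of 2.64, and with no filter 15 rose and 1 fell of 20 entries. Their summed level was 378, 393 and 418 FPKM in the day 9 libraries and 732, 1736 and 1737 FPKM in the NSC libraries. The list rose in every NSC library, least in replicate 1. Nfib, a nuclear factor I gene that like Nfix promotes gliogenesis, rose from 0.385 ± 0.0643 to 32.8 ± 5.64 FPKM (adjusted p = 1.50e-16). S100b, which encodes a calcium binding protein of glia, stood at 0.235, 0.120 and 0 FPKM in the day 9 libraries and 4.69, 17.4 and 26.5 FPKM in the NSC libraries (log2 fold change 3.67 ± 0.35 (SE), adjusted p = 1.15e-08). Aldoc, the brain form of the glycolytic enzyme aldolase, stood at 13.9, 19.1 and 20.8 FPKM in the day 9 libraries and 119, 317 and 305 FPKM in the NSC libraries (log2 fold change 3.60 ± 0.38 (SE), adjusted p = 1.14e-07). Apoe, which encodes the main lipid carrier made by astrocytes, stood at 138, 116 and 142 FPKM in the day 9 libraries and 35.9, 438 and 369 FPKM in the NSC libraries. It lay below the day 9 libraries in NSC replicate 1 and above them in replicates 2 and 3, and was called only without replicate 1 (adjusted p = 0.56 with it and 1.20e-04 without it).

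Of the oligodendrocyte lineage genes 12 of 16 tested members rose, 3 fell and 1 was not called, with a median log2 fold change of 2.85. With no filter 12 rose and 4 fell of 18 entries. Sox8 rose from 6.59 ± 0.746 to 125 ± 12.8 FPKM (adjusted p = 2.59e-15) and Bcas1, a gene of early oligodendrocytes, rose from 0.149 ± 0.0397 to 20.4 ± 3.44 FPKM (adjusted p = 1.15e-13). Lims2 was not called, at 1.27, 0.354 and 0.360 FPKM at day 9 and 0, 2.52 and 1.55 FPKM in NSCs (adjusted p = 0.42), but was higher without NSC replicate 1 (adjusted p = 0.025). Its locus overlaps that of Gpr17. Without NSC replicate 1 the calls in these 3 lists were little changed: in the radial glia list 15 rose and 4 fell, in the astroglia list 15 rose and 1 fell, and in the oligodendrocyte list 13 rose and 2 fell.

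The receptor for the EGF in the NSC medium was among the genes that rose. Of 17 FGF and EGF ligands and receptors 5 rose and 6 fell (median log2 fold change 0.02). With no filter 8 rose and 11 fell of 30 entries. Egfr stood at 1.13, 1.34 and 1.61 FPKM in the day 9 libraries and 39.7, 95.9 and 75.8 FPKM in the NSC libraries (log2 fold change 4.84 ± 0.28 (SE), adjusted p = 3.05e-12), so that it was a low gene at day 9 and a well expressed gene in all NSC libraries. The ligand gene Fgf1 rose from 0.0626 ± 0.0258 to 6.07 ± 2.87 FPKM (adjusted p = 2.46e-10). Fgfr2 fell from 14.4 ± 1.93 to 3.77 ± 1.11 FPKM (adjusted p = 1.09e-08), and the embryonic ligand genes Fgf15 (from 10.2 ± 1.01 to 0.0765 ± 0.0664 FPKM) and Fgf4 (from 2.87 ± 0.124 to 0.0658 ± 0.0672 FPKM) fell as well. Erbb2, which encodes a partner of EGFR, was not called (11.6 and 10.5 FPKM).

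Of the genes that respond to FGF and EGF through MAP kinase, 11 of 26 tested members rose, 6 fell and 9 were not called, with a median log2 fold change of 0.78. Etv4 and Etv5 led the list. Etv4 stood at 0.723, 1.48 and 0.837 FPKM in the day 9 libraries and 57.2, 44.9 and 52.97 FPKM in the NSC libraries (log2 fold change 4.72 ± 0.25 (SE), adjusted p = 5.82e-13). Etv5 stood at 8.14, 11.6 and 10.7 FPKM in the day 9 libraries and 199.8, 92.8 and 145 FPKM in the NSC libraries (log2 fold change 3.66 ± 0.21 (SE), adjusted p = 3.61e-12). Etv1 rose from 3.78 ± 0.223 to 43.3 ± 2.81 FPKM and Spry4, a feedback inhibitor gene, rose from 0.893 ± 0.524 to 18.8 ± 11.5 FPKM. For all of these the NSC libraries were above the day 9 libraries. Ccnd1, the cyclin D1 gene, stood at 109, 106 and 100.4 FPKM in the day 9 libraries and 474, 67.1 and 188 FPKM in the NSC libraries, and was not called (adjusted p = 0.18): NSC replicate 2 lay below the day 9 range and the other NSC libraries above it.

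Of the genes of the brain extracellular matrix 11 of 17 tested members rose, 5 fell and 1 was not called, with a median log2 fold change of 1.89. With no filter 11 rose and 6 fell of 20 entries. Beside Bcan, Tnc and Ptprz1, Ncan, which encodes the proteoglycan neurocan, stood at 9.94, 9.32 and 6.87 FPKM in the day 9 libraries and 93.8, 251 and 233 FPKM in the NSC libraries (log2 fold change 4.21 ± 0.27 (SE), adjusted p = 1.67e-11). Gpc1, a glypican gene, was not called (55.2 and 47.7 FPKM). Of the collagens 5 of 21 tested members rose, 13 fell and 3 were not called, with a median log2 fold change of -1.01. With no filter 6 rose and 22 fell of 41 entries. Col2a1 fell from 46.0 ± 8.32 to 1.00 ± 0.619 FPKM and Col18a1 fell from 77.1 ± 19.9 to 2.74 ± 1.15 FPKM. Col3a1 stood at 9.55, 28.8 and 30.5 FPKM in the day 9 libraries and 5.28, 0.0999 and 0 FPKM in the NSC libraries (log2 fold change -3.49 ± 0.65 (SE), adjusted p = 1.28e-04), where NSC replicate 1 was the only NSC library with a clear level. In the list of laminins and basement membrane genes 5 rose, 3 fell and 5 were not called (median log2 fold change 0.11). Lama1 was lower (from 10.5 ± 1.33 to 0.272 ± 0.115 FPKM) and Fbln2, the fibulin 2 gene, higher (from 3.62 ± 0.743 to 30.9 ± 5.06 FPKM). Of 11 integrins 7 rose, among them Itga7 (from 0.0765 ± 0.0531 to 12.02 ± 5.70 FPKM), Itgav (from 7.08 ± 0.771 to 19.3 ± 2.41 FPKM) and Itga6 (from 13.7 ± 1.51 to 34.0 ± 12.8 FPKM), which bind laminin or RGD ligands, and 1 fell. With no filter 9 rose and 3 fell of 23 entries.

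Most protocadherin entries rose, the classical cadherins divided, and most junction genes of epithelia fell. Of the 23 protocadherin entries 21 rose and 2 fell (median log2 fold change 1.41). With no filter 29 rose and 3 fell of 33 entries. The entry that pools the clustered alpha and gamma protocadherin genes, whose variable exons share constant exons, stood at 66.3, 82.0 and 75.3 FPKM in the day 9 libraries and 290.2, 372 and 333 FPKM in the NSC libraries (log2 fold change 2.14 ± 0.11 (SE), adjusted p = 1.65e-13). Its locus also spans the beta cluster, so that reads of these genes may be split among entries. Pcdh10 stood at 2.02, 3.57 and 2.52 FPKM in the day 9 libraries and 22.1, 62.9 and 58.0 FPKM in the NSC libraries (log2 fold change 3.60 ± 0.26 (SE), adjusted p = 1.17e-10). Pcdh8, a gene of early mesoderm and neural plate, fell from 26.6 ± 3.14 to 0.220 ± 0.152 FPKM. Of the classical cadherins 5 of 13 rose, led by Cdh4 (from 3.73 ± 1.02 to 35.0 ± 13.6 FPKM), Cdh13 (from 5.07 ± 1.22 to 45.4 ± 17.2 FPKM) and Cdh10 (from 1.40 ± 0.181 to 14.2 ± 5.62 FPKM), and 5 fell. With no filter 5 rose and 6 fell of 20 entries. Cdh2, the N-cadherin gene, stood near its day 9 level (81.6, 81.2 and 76.3 FPKM in the day 9 libraries and 84.3, 54.6 and 59.6 FPKM in the NSC libraries) and was not called (adjusted p = 0.055), but it was called lower without NSC replicate 1 (adjusted p = 6.63e-04). Cdh1, the E-cadherin gene, stood at 10.3, 17.6 and 16.7 FPKM in the day 9 libraries and 0, 0.0424 and 0 FPKM in the NSC libraries (log2 fold change -3.93 ± 0.17 (SE), adjusted p = 3.20e-14).

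Of the epithelial junction genes 1 of 21 tested members rose, 19 fell and 1 was not called, with a median log2 fold change of -2.45. With no filter 1 rose and 22 fell of 25 entries, and with the filter but without NSC replicate 1 none rose and 19 fell. Krt8 and Krt18, the keratin pair of simple epithelia, stood at 79.0, 114 and 112 FPKM and 74.7, 104 and 104.8 FPKM in the day 9 libraries and at 0.118, 0 and 0 FPKM and 0, 0 and 0.147 FPKM in the NSC libraries. The claudin genes Cldn4 (day 9 mean 15.3 FPKM, adjusted p = 9.06e-12) and Cldn6 (day 9 mean 26.1 FPKM, adjusted p = 6.86e-10) were listed at 0 in all NSC libraries. Tjp1, which encodes the tight junction scaffold ZO-1, was not called (27.1 and 26.3 FPKM).

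**Figure D2:**
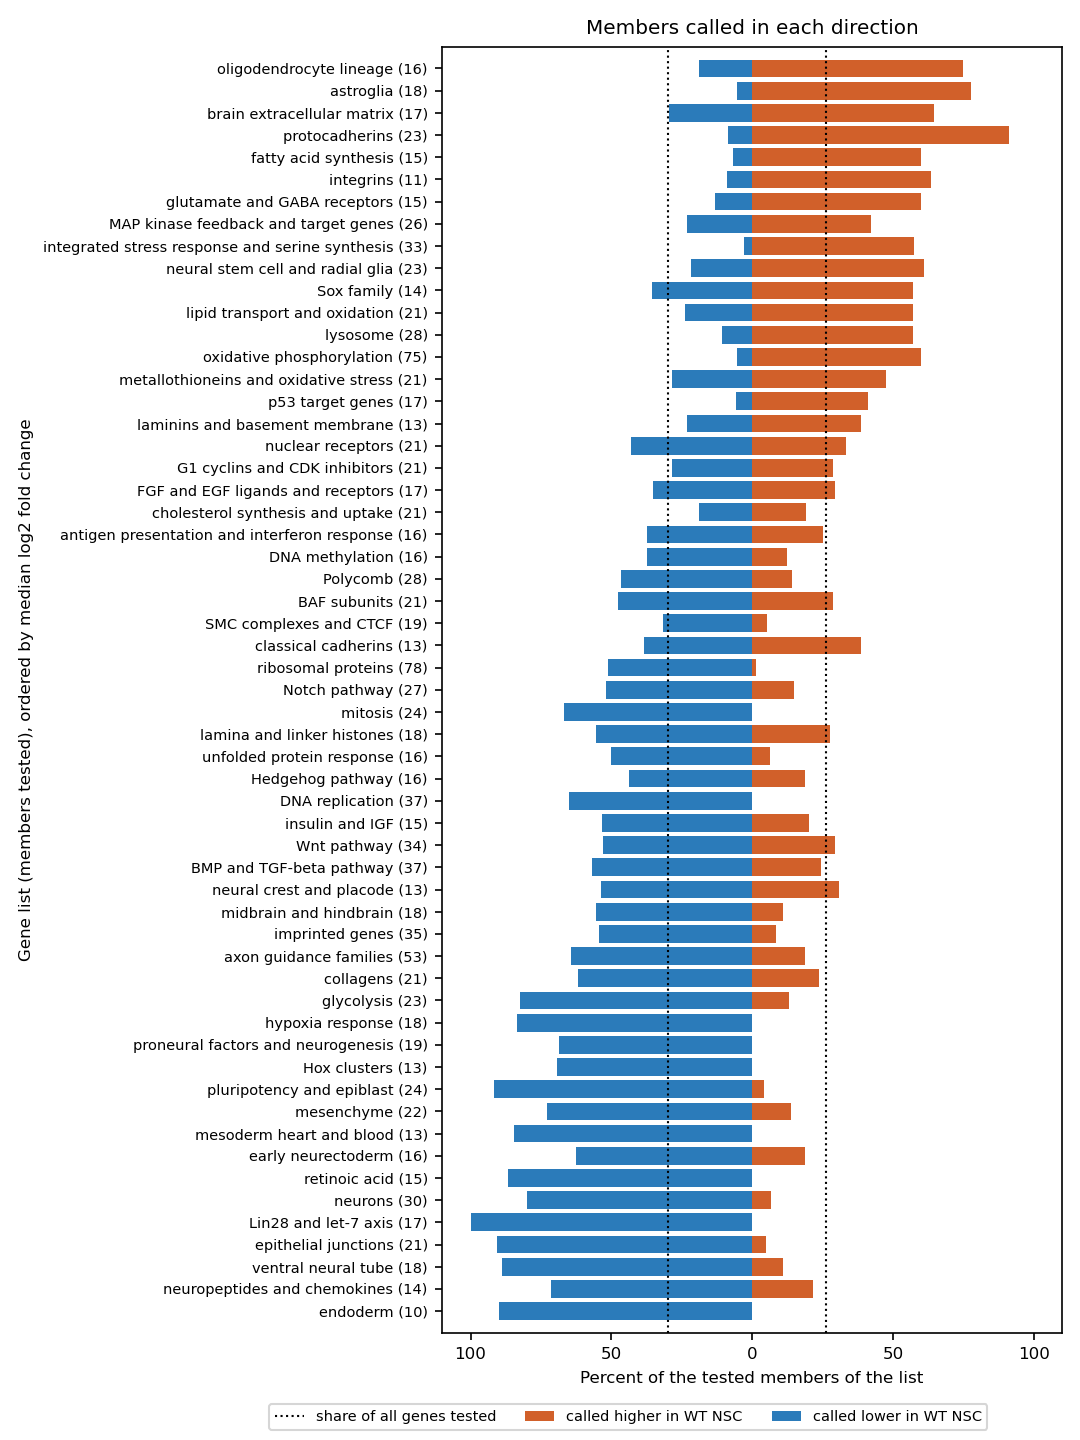
Bars give the percent of the tested members of each gene list that were called higher (right) or lower (left) in WT NSC than in WT day 9, for the lists with at least 10 members tested (in brackets), ordered by their median log2 fold change, and dotted lines give the shares of all 11808 genes, 26.3% and 29.9%. The endoderm list is at the bottom, with 9 of 10 lower, and the oligodendrocyte lineage list at the top, with 12 of 16 higher. In these lists 80% and 56.2% of the tested members were below 1 FPKM in one stage and had to differ to pass the level filter.

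Of 15 tested receptor genes for glutamate and GABA 9 rose, 2 fell and 4 were not called. With no filter 12 rose and 5 fell of 36 entries. Grm5, a metabotropic glutamate receptor gene, was listed at 0 in all day 9 libraries and stood at 12.2, 12.9 and 11.98 FPKM in the NSC libraries (adjusted p = 8.36e-17). Grm3 rose from 0.209 ± 0.102 to 12.95 ± 3.44 FPKM, Gabrg1 rose from 0.241 ± 0.168 to 11.3 ± 4.16 FPKM and Grin3a rose from 0.0189 ± 0.0328 to 7.83 ± 2.09 FPKM. These receptors are found on glial progenitors as well as on neurons. Gabbr1 was not called with all libraries (11.9, 12.9 and 12.5 FPKM in the day 9 libraries and 9.93, 22.3 and 18.3 FPKM in the NSC libraries, adjusted p = 0.13) and was called without NSC replicate 1 (adjusted p = 5.34e-04). Among secreted factors, Ptn, which encodes pleiotrophin, stood at 14.8, 9.06 and 11.3 FPKM in the day 9 libraries and 384, 562 and 471 FPKM in the NSC libraries (log2 fold change 5.23 ± 0.21 (SE), adjusted p = 1.14e-14), and the related midkine gene Mdk moved the other way, at 880.4, 1012 and 1067 FPKM in the day 9 libraries and 24.5, 19.4 and 16.8 FPKM in the NSC libraries (log2 fold change -5.55 ± 0.35 (SE), adjusted p = 5.50e-11). No library of one stage reached the range of the other for either gene.

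Most tested pluripotency and epiblast genes were lower in NSCs. Of 24 tested members 22 fell, 1 rose and 1 was not called (median log2 fold change -2.03). With no filter 1 rose and 28 fell of 30 entries. Pou5f1, the OCT4 gene, stood at 36.4, 31.5 and 47.9 FPKM in the day 9 libraries and 0, 0.931 and 0.224 FPKM in the NSC libraries (log2 fold change -4.87 ± 0.21 (SE), adjusted p = 3.21e-14). Nanog, listed together with Nanogpd, stood at 22.7, 15.1 and 22.8 FPKM in the day 9 libraries and 0.823, 0.155 and 0.459 FPKM in the NSC libraries (log2 fold change -3.84 ± 0.26 (SE), adjusted p = 6.37e-11). These day 9 levels were below those of the mESC libraries, which had 1240.4, 1453 and 1384 FPKM of Pou5f1 and 755, 884 and 929 FPKM of Nanog. Dppa5a stood at 191, 158 and 219 FPKM in the day 9 libraries and 0, 0.409 and 0.404 FPKM in the NSC libraries (log2 fold change -7.23 ± 0.24 (SE), adjusted p = 5.45e-16). Trh, the thyrotropin releasing hormone gene that marks ESCs and their early derivatives, fell from 36.1 ± 8.76 to 0.104 ± 0.0899 FPKM. Sall4, a zinc finger gene of pluripotent and progenitor cells, stood at 25.7, 26.3 and 23.0 FPKM in the day 9 libraries and 0.0759, 0 and 0 FPKM in the NSC libraries (log2 fold change -4.66 ± 0.19 (SE), adjusted p = 5.97e-15). Dppa3 (day 9 mean 13.8 FPKM) and Dnmt3l (day 9 mean 5.62 FPKM) were listed at 0 in all NSC libraries. Tet1, which encodes a dioxygenase that oxidizes methylcytosine, was the member not called (4.20 and 4.52 FPKM).

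All 17 tested genes of the Lin28 and let-7 axis fell, with a median log2 fold change of -2.44, and all 17 fell also without NSC replicate 1. No member of this list was lost to the level filter, and with no filter 17 of 17 fell. LIN28 proteins bind let-7 precursors and block their processing, and let-7 in turn represses Lin28 and other genes of early progenitors through sites in their 3' untranslated regions (UTRs). The seed of let-7 (bases 2 to 8, in capitals in the RefSeq sequence of mmu-let-7a-5p) and the first match to it (CTACCTC, in capitals) in the 3' UTR of 5 of the genes that fell are shown, as DNA on the strand of the gene, with mm9 coordinates of the stretch.
mmu-let-7a-5p: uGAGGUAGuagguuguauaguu
Lin28a, chr4:133561101-133561129, minus strand: agtgcacagcctgttgaaCTACCTCattt
Lin28b, chr10:45100825-45100853, minus strand: ttcacccgggcgggaagtCTACCTCatgc
Trim71, chr9:114421587-114421615, minus strand: tacaacattgcctaagtcCTACCTCagct
Hmga2, chr10:119801277-119801305, minus strand: ggcgccgacattcaatttCTACCTCagca
Igdcc3, chr9:65033511-65033539, plus strand: tgttgtgactctcagcacCTACCTCagcc

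Of the genes shown, Lin28a, Lin28b, Trim71 and Hmga2 are of the list above and Igdcc3 is from the largest falls, and as genes picked among those that fell they are no sample of the genes with matches. Lin28a stood at 55.4, 65.4 and 58.0 FPKM in the day 9 libraries and 0.116, 0.109 and 0.108 FPKM in the NSC libraries (log2 fold change -5.77 ± 0.19 (SE), adjusted p = 1.93e-16). Lin28b stood at 15.2, 16.9 and 16.1 FPKM in the day 9 libraries and 0.0731, 0.0687 and 0.272 FPKM in the NSC libraries (log2 fold change -3.91 ± 0.14 (SE), adjusted p = 1.57e-15). Both genes, which encode the RNA binding proteins themselves, were close to 0 in the NSC libraries. Nr6a1, an orphan nuclear receptor gene whose 3' UTR held 8 matches, stood at 15.7, 15.7 and 15.6 FPKM in the day 9 libraries and 0.905, 1.07 and 0.623 FPKM in the NSC libraries (log2 fold change -3.17 ± 0.13 (SE), adjusted p = 5.97e-15). Igdcc3, which is not in the list and has 2 matches, stood at 236, 221 and 201 FPKM in the day 9 libraries and 0.517, 1.94 and 1.56 FPKM in the NSC libraries (log2 fold change -6.61 ± 0.17 (SE), adjusted p = 1.74e-17). Neither overlapped between the stages. Hmga2, a chromatin protein gene with 4 matches, stood at 71.9, 86.4 and 92.3 FPKM in the day 9 libraries and 27.6, 9.66 and 12.1 FPKM in the NSC libraries (log2 fold change -2.41 ± 0.25 (SE), adjusted p = 4.19e-08) and kept a moderate level in NSCs, highest in replicate 1. Its relative Hmga1 fell from 649.6 ± 30.0 to 124 ± 23.5 FPKM. Of the other list members, the entry of Igf2bp1 and Mir3063 stood at 197, 58.0 and 55.5 FPKM in the day 9 libraries and 3.60, 1.00 and 0.367 FPKM in the NSC libraries, with day 9 replicate 1 more than 3 times above the other day 9 libraries, and Arid3b fell from 34.4 ± 4.08 to 0.828 ± 0.690 FPKM.

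Matches to the let-7 seed were then counted in the 3' UTRs of the compared genes (longest annotated 3' UTR per gene, 11247 genes). The 130 entries with several symbols were left out, of which 118 have a 3' UTR under at least 1 of the symbols and 16 a match in it. Among these is the list member Igf2bp1, with 4 matches, 3 of them followed by A. A match was found in 1111 genes (9.88%) and in 13 of the other 16 list members. The list was chosen as genes of the let-7 axis, so that its share follows in part from that choice. The median log2 fold change was -0.03 for 10136 genes without a match, -0.14 for 985 genes with 1 match and -0.16 for 126 genes with 2 or more, and 29.3%, 37.2% and 43.7% of these genes fell. The median UTR length of the same groups was 1020, 2013 and 3426 bases, and its part in these shares was not tested. Among 17 genes with at least 2 matches followed by A, a grouping chosen after the values were seen, 15 fell, none rose and the median was -0.97. The like grouping gave medians of -0.29 for 24 genes with matches to miR-9-5p (ACCAAAG), -0.40 for 28 genes with miR-125b-5p (CTCAGGG) and 0.20 for 22 genes with miR-17-5p (GCACTTT). Of the genes with 0, 1 and 2 or more matches to miR-9-5p, 29.9%, 32.1% and 29.2% fell. The shares were 30.2%, 30.2% and 29.3% for miR-125b-5p and 30.6%, 28.4% and 23.6% for miR-17-5p. With 2 or more matches the median UTR lengths were 3267, 2908 and 3522 bases for these 3 seeds. The mature microRNAs were not measured in these libraries, and a seed match is a description of the sequence only.

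**Figure D3:**
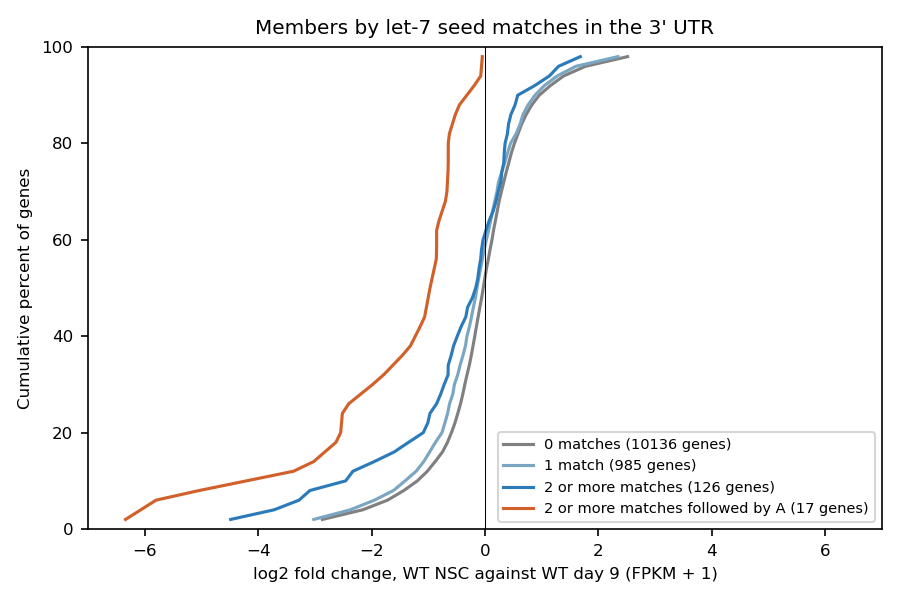
Curves give the cumulative percent of genes (y, percentiles 2 to 98) against the log2 fold change of WT NSC over WT day 9 (x, on FPKM + 1), by the number of let-7 seed matches in the 3' UTR. The curve of the 17 genes with 2 or more matches followed by A lies left of the others with a median of -0.97, and the curves of 0 matches and of 1 match lie close together, with medians of -0.03 and -0.14.

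Of 16 tested genes of the early neurectoderm 3 rose, 10 fell and 3 were not called (median log2 fold change -2.28). With no filter 3 rose and 14 fell of 22 entries. Sox1 fell as above, Otx2, a fore- and midbrain homeobox gene, stood at 6.19, 12.4 and 6.92 FPKM in the day 9 libraries and 0.125, 0 and 0 FPKM in the NSC libraries (log2 fold change -3.14 ± 0.27 (SE), adjusted p = 1.42e-09). Lhx5 fell from 9.23 ± 5.08 to 0.0735 ± 0.0750 FPKM. Sfrp2, a secreted Wnt antagonist gene, stood at 139.7, 84.6 and 87.1 FPKM in the day 9 libraries and 10.5, 10.9 and 9.72 FPKM in the NSC libraries (log2 fold change -3.17 ± 0.20 (SE), adjusted p = 8.02e-12). The day 9 libraries were spread widely for Lhx5 and Sfrp2, with replicate 1 highest, and none of them reached down to the NSC range. Zic2 (5.43 and 6.75 FPKM) and Pou3f1 (8.78, 8.93 and 9.79 FPKM in the day 9 libraries and 12.2, 2.61 and 5.66 FPKM in the NSC libraries) were not called, and Pou3f1 was called lower without NSC replicate 1 (adjusted p = 0.0013). In the Sox family 8 rose, 5 fell and 1 was not called (median log2 fold change 0.57). Sox6, a gene of glial progenitors, rose from 1.54 ± 0.271 to 16.8 ± 3.18 FPKM. Sox13 fell from 46.3 ± 3.97 to 3.16 ± 1.30 FPKM.

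Retinoic acid genes were among the groups with the lowest medians: of 15 tested members none rose, 13 fell and 2 were not called (median log2 fold change -2.30), and with no filter 1 rose and 14 fell of 19 entries. Among those that fell were enzyme genes of retinoic acid breakdown. Cyp26b1 stood at 56.6, 42.5 and 42.7 FPKM in the day 9 libraries and 2.41, 1.91 and 4.36 FPKM in the NSC libraries (log2 fold change -3.67 ± 0.22 (SE), adjusted p = 3.69e-12), and Cyp26c1, at 38.1, 11.6 and 20.03 FPKM in the day 9 libraries, was listed at 0 in all NSC libraries (adjusted p = 1.19e-11). Rdh10, which encodes a retinol dehydrogenase that begins its synthesis, was low in both stages and not called (3.52 and 4.39 FPKM).

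Most genes of position along the neural tube fell. In the ventral neural tube list 2 of 18 tested members rose and 16 fell, with a median log2 fold change of -2.77, and Olig2 is 1 of the genes that rose. With no filter 2 rose and 20 fell of 22 entries. Nkx6-1, a homeobox gene of ventral progenitors, stood at 81.3, 117 and 113 FPKM in the day 9 libraries and 1.31, 0.112 and 0 FPKM in the NSC libraries (log2 fold change -6.24 ± 0.54 (SE), adjusted p = 7.71e-09). Nkx6-2 stood at 139.9, 135 and 161 FPKM in the day 9 libraries and 0.891, 0.838 and 1.97 FPKM in the NSC libraries (log2 fold change -6.07 ± 0.58 (SE), adjusted p = 3.77e-08). Foxa2, the floor plate factor gene, stood at 25.7, 46.7 and 38.1 FPKM in the day 9 libraries and was listed at 0 in all NSC libraries (adjusted p = 4.45e-10). Shh, the Sonic hedgehog gene, fell from 32.1 ± 10.7 to 0.0239 ± 0.0414 FPKM. Isl1, a motor neuron gene, was at 21.8, 34.6 and 31.5 FPKM in the day 9 libraries and listed at 0 in all NSC libraries (adjusted p = 2.02e-13). In the forebrain list 1 of 5 tested members rose and 4 fell, among them Foxd1 (from 8.55 ± 2.83 to 0.0561 ± 0.0971 FPKM) and Sp8 (from 8.20 ± 3.40 to 0.125 ± 0.142 FPKM), with no filter 1 rose and 8 fell of 21 entries, and without NSC replicate 1 none rose and 4 fell.

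Of the midbrain and hindbrain genes 2 of 18 tested members rose, 10 fell and 6 were not called, with a median log2 fold change of -0.86. With no filter 2 rose and 14 fell of 22 entries. Phox2a, a homeobox gene of cranial motor neurons, fell from 31.9 ± 8.88 to 0.0418 ± 0.0725 FPKM. En2, an engrailed gene of the midbrain and anterior hindbrain, went the other way, at 0.976, 0.526 and 0.268 FPKM in the day 9 libraries and 18.1, 10.2 and 10.3 FPKM in the NSC libraries (log2 fold change 3.10 ± 0.24 (SE), adjusted p = 2.54e-10). Meis1 was not called (45.4 and 42.5 FPKM). Of the 13 tested Hox genes, which mark positions from the hindbrain down, none rose, 9 fell and 4 were not called (median log2 fold change -1.64). With no filter none rose and 18 fell of 33 entries. Hoxb2 stood at 85.7, 91.3 and 83.6 FPKM in the day 9 libraries and 10.8, 8.89 and 12.7 FPKM in the NSC libraries (log2 fold change -2.91 ± 0.26 (SE), adjusted p = 4.43e-09) and Hoxb3 at 26.9, 33.1 and 28.8 FPKM in the day 9 libraries and 7.71, 9.10 and 7.15 FPKM in the NSC libraries (log2 fold change -1.77 ± 0.30 (SE), adjusted p = 3.79e-05), so that both remained above 0 in NSCs, whereas Hoxb1, at 19.7, 25.6 and 26.2 FPKM at day 9, was listed at 0 in all NSC libraries. Of 6 dorsal neural tube genes 1 rose, 2 fell and 3 were not called, and with no filter 1 rose and 4 fell of 17 entries. The 1 that rose was Pax3 (6.91, 1.20 and 0.956 FPKM in the day 9 libraries and 4.15, 5.99 and 7.54 FPKM in the NSC libraries, adjusted p = 0.016), with day 9 replicate 1 within the NSC range. Pax3 lost its call when day 9 replicate 2, day 9 replicate 3 or NSC replicate 3 was left out (adjusted p = 0.098, 0.12 and 0.071) and in a fit of the 6 libraries alone (adjusted p = 0.14). In that fit none of the 6 dorsal genes rose and 1 fell.

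In the Hedgehog pathway, which patterns the ventral neural tube, 3 of 16 tested members rose, 7 fell and 6 were not called, with a median log2 fold change of -0.51, and with no filter 3 rose and 7 fell of 17 entries. Gli1, a direct target of the pathway, stood at 16.9, 19.6 and 20.02 FPKM in the day 9 libraries and 0.0549, 0 and 0 FPKM in the NSC libraries (log2 fold change -4.28 ± 0.30 (SE), adjusted p = 4.90e-11). Ptch1, which encodes the receptor and is a target too, stood at 54.4, 61.8 and 67.7 FPKM in the day 9 libraries and 16.1, 32.7 and 22.2 FPKM in the NSC libraries (log2 fold change -1.39 ± 0.24 (SE), adjusted p = 3.61e-05). Smo, the signal transducer gene, was not called (49.8 and 45.0 FPKM). The co-receptor gene Gas1 rose from 12.7 ± 4.497 to 65.5 ± 5.87 FPKM. Gli1 was near 0 in all NSC libraries while Ptch1 kept a moderate level in each.

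Most tested neuronal genes were lower in NSCs. Of 30 tested members 2 rose, 24 fell and 4 were not called (median log2 fold change -2.37), with no filter 2 rose and 27 fell of 33 entries, and the summed level of the list was 1454, 1658 and 1533 FPKM in the day 9 libraries and 316, 330.1 and 372 FPKM in the NSC libraries. Nefl, a neurofilament gene, stood at 151, 191 and 179.5 FPKM in the day 9 libraries and 1.06, 0.298 and 0.294 FPKM in the NSC libraries (log2 fold change -6.85 ± 0.26 (SE), adjusted p = 4.38e-15). Nefm fell from 165 ± 31.2 to 1.00 ± 0.876 FPKM. Stmn2, a microtubule regulator gene of growing axons, stood at 108, 117 and 111 FPKM in the day 9 libraries and 0, 0.629 and 0.519 FPKM in the NSC libraries (log2 fold change -6.38 ± 0.15 (SE), adjusted p = 4.28e-18). Nhlh1, a factor of newborn neurons, fell from 33.3 ± 3.94 to 0.0277 ± 0.0480 FPKM. Gap43, a growth cone gene that glial progenitors also use, was not called (118, 164 and 162 FPKM in the day 9 libraries and 163, 70.7 and 127 FPKM in the NSC libraries, adjusted p = 0.24).

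Of the proneural and neurogenesis genes none of 19 rose, 13 fell and 6 were not called, and without NSC replicate 1 1 rose and 12 fell. With no filter none rose and 15 fell of 23 entries. Neurog1, at 21.1, 14.9 and 12.2 FPKM at day 9, was listed at 0 in all NSC libraries, and Neurog2 fell from 13.5 ± 2.73 to 0.177 ± 0.235 FPKM, Neurod4 fell from 18.5 ± 1.57 to 0.0201 ± 0.0349 FPKM and St18 fell from 9.53 ± 0.495 to 0.0337 ± 0.0345 FPKM. Gadd45g (62.8 and 53.3 FPKM) was among those not called. Of the axon guidance families, which are receptors and ligands that steer axons, 10 of 53 tested members rose, 34 fell and 9 were not called, with a median log2 fold change of -0.99. The 3 Slit genes fell, Slit1 from 40.7 ± 11.1 to 0.826 ± 0.166 FPKM, Slit2 from 21.5 ± 5.17 to 0.390 ± 0.197 FPKM and Slit3 from 16.8 ± 4.45 to 0.244 ± 0.162 FPKM, all of which encode midline repellents.

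Of 22 endoderm entries 10 passed the level filter, 8 of them with an NSC mean below 1 FPKM and so through their day 9 level alone. With no filter none rose and 16 fell of 22 entries, and of the 10 that passed 9 fell. The summed level of the tested members was 280.3, 422 and 395 FPKM in the day 9 libraries and 4.85, 4.82 and 6.05 FPKM in the NSC libraries. Foxa2, Trh, Krt8 and Krt18 in this list are also used by floor plate, epiblast or other epithelia. Krt19 (day 9 mean 40.7 FPKM) and Spink3 (day 9 mean 40.5 FPKM) were listed at 0 in all NSC libraries. In the list of mesoderm, heart and blood 13 members passed, 10 of them through their day 9 level alone. With no filter none rose and 21 fell of 28 entries, and of the 13 that passed 11 fell and none rose. T, the brachyury gene, stood at 12.2, 30.2 and 21.0 FPKM in the day 9 libraries and 0.824, 0.484 and 0.192 FPKM in the NSC libraries (log2 fold change -3.82 ± 0.44 (SE), adjusted p = 2.89e-07) and Hbb-bh1, an embryonic globin gene, at 2.94, 9.46 and 8.32 FPKM at day 9 and listed at 0 in NSCs. Day 9 replicate 1 was the lowest day 9 library for T, Hbb-bh1 and Foxa2. Of 9 endothelial genes 7 fell, among them Egfl7 (from 11.6 ± 1.83 to 4.39 ± 0.555 FPKM), with no filter none rose and 9 fell of 12 entries, and only 1 of the microglia and blood cell markers, Cd68, passed the level filter (2.46 and 2.51 FPKM, not called).

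Of the mesenchyme genes 3 of 22 tested members rose, 16 fell and 3 were not called, with a median log2 fold change of -2.04. With no filter 3 rose and 17 fell of 25 entries. The actin cytoskeleton genes Acta2 (from 21.6 ± 6.63 to 0.120 ± 0.208 FPKM) and Tagln (from 35.9 ± 7.91 to 1.01 ± 0.435 FPKM) fell, as did Ctgf (from 13.4 ± 0.992 to 0.295 ± 0.282 FPKM), a target of YAP. Anxa2 was not called (50.1 and 44.7 FPKM). Of 13 neural crest and placode genes 4 rose, 7 fell and 2 were not called. With no filter 5 rose and 12 fell of 23 entries. Ngfr, the low affinity neurotrophin receptor gene of neural crest, stood at 11.8, 23.4 and 19.8 FPKM in the day 9 libraries and 0.0594, 0 and 0.110 FPKM in the NSC libraries (log2 fold change -4.14 ± 0.29 (SE), adjusted p = 4.62e-11). Twist1 was not called (15.8 and 15.4 FPKM). The summed level of the mesenchyme list was 528, 683 and 719.5 FPKM in the day 9 libraries and 1597, 843 and 925 FPKM in the NSC libraries.

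Of the Wnt pathway genes 10 of 34 tested members rose, 18 fell and 6 were not called, with a median log2 fold change of -0.73. Sfrp1, a secreted antagonist gene, stood at 184, 184 and 195 FPKM in the day 9 libraries and 5.92, 3.90 and 2.88 FPKM in the NSC libraries (log2 fold change -5.21 ± 0.28 (SE), adjusted p = 2.16e-12), the receptor gene Fzd7 fell from 80.3 ± 0.601 to 8.09 ± 1.60 FPKM and Lgr4 fell from 33.7 ± 5.33 to 3.501 ± 0.997 FPKM. Ctnnb1, the beta-catenin gene, was not called (345 and 334 FPKM). Of the Notch pathway genes 4 of 27 tested members rose, 14 fell and 9 were not called, with a median log2 fold change of -0.42. Without NSC replicate 1 8 rose and 13 fell. Maml2, a coactivator gene, was higher (from 4.11 ± 0.579 to 20.2 ± 4.21 FPKM) and the ligand gene Jag2 lower (from 5.37 ± 0.401 to 0.235 ± 0.0778 FPKM). Of the BMP and TGF-beta pathway genes 9 of 37 tested members rose, 21 fell and 7 were not called, with a median log2 fold change of -0.74. With no filter 9 rose and 23 fell of 45 entries. Id4 fell from 36.2 ± 14.0 to 2.50 ± 2.50 FPKM, the antagonist gene Fst fell from 7.00 ± 0.373 to 0.494 ± 0.538 FPKM. Ltbp3, which binds latent TGF-beta, rose from 1.63 ± 0.289 to 19.7 ± 4.91 FPKM. Id3, a direct BMP target, was not called (137 and 141 FPKM).

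Of the insulin and IGF genes 3 of 15 tested members rose, 8 fell and 4 were not called, with a median log2 fold change of -0.64. Igfbp3, a binding protein gene, stood at 3.44, 17 and 10.1 FPKM in the day 9 libraries and 261, 42.6 and 63.9 FPKM in the NSC libraries (log2 fold change 3.24 ± 0.51 (SE), adjusted p = 2.40e-05), with NSC replicate 1 over 4 times above the other NSC libraries. Igf2r fell from 11.4 ± 0.123 to 1.75 ± 1.04 FPKM, and its locus overlaps the antisense RNA Airn. Of 21 nuclear receptors 7 rose, 9 fell and 5 were not called, with the glucocorticoid receptor gene Nr3c1 (from 1.11 ± 0.509 to 12.8 ± 0.615 FPKM) and the thyroid hormone receptor gene Thra (from 16.3 ± 0.950 to 103 ± 20.2 FPKM) higher in NSCs.

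Most glycolysis genes fell. Of the glycolysis genes 3 of 23 tested members rose, 19 fell and 1 was not called, with a median log2 fold change of -1.17. Slc2a1, the GLUT1 glucose transporter gene, stood at 303, 319 and 299 FPKM in the day 9 libraries and 22.7, 16.0 and 34.1 FPKM in the NSC libraries (log2 fold change -3.67 ± 0.17 (SE), adjusted p = 1.04e-13). Slc2a3, the GLUT3 gene, stood at 171, 168 and 187 FPKM in the day 9 libraries and 1.11, 1.57 and 5.50 FPKM in the NSC libraries (log2 fold change -5.75 ± 0.29 (SE), adjusted p = 6.51e-13). Slc16a3, the lactate exporter gene MCT4, stood at 137, 164 and 164 FPKM in the day 9 libraries and 1.75, 10.1 and 34.3 FPKM in the NSC libraries (log2 fold change -3.92 ± 0.55 (SE), adjusted p = 8.17e-06). All NSC libraries lay below all day 9 libraries for these genes, and the NSC libraries themselves differed, replicate 3 being highest for each. Aldoc, the astrocyte aldolase, was 1 of the 3 members that rose, and Hk1 was not called (18.5 and 26.2 FPKM, adjusted p = 0.083) but was higher without NSC replicate 1 (adjusted p = 0.0089).

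Of the genes of the hypoxia response, which are targets of HIF-1, none of 18 rose, 15 fell and 3 were not called (median log2 fold change -1.18), and without NSC replicate 1 none rose and 14 fell. Bnip3, which encodes a mitophagy receptor, stood at 172, 159.7 and 161 FPKM in the day 9 libraries and 7.21, 27.5 and 54.0 FPKM in the NSC libraries (log2 fold change -2.82 ± 0.44 (SE), adjusted p = 2.24e-05). Loxl2, a lysyl oxidase gene, stood at 47.6, 53.3 and 54.5 FPKM in the day 9 libraries and 2.56, 5.95 and 12.5 FPKM in the NSC libraries (log2 fold change -2.93 ± 0.27 (SE), adjusted p = 6.10e-09). P4ha2, a collagen prolyl hydroxylase gene, stood at 12.2, 16.4 and 11.7 FPKM in the day 9 libraries and 0, 1.20 and 4.67 FPKM in the NSC libraries (log2 fold change -2.62 ± 0.39 (SE), adjusted p = 6.73e-06). The order among the NSC libraries was the same for these genes, with replicate 1 lowest and replicate 3 highest, and the list median lay -1.93, -1.25 and -0.56 from the day 9 mean in NSC replicates 1, 2 and 3. Ddit4 was not called with all libraries (291, 273 and 276 FPKM in the day 9 libraries and 38.6, 116 and 173 FPKM in the NSC libraries, adjusted p = 0.058).

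The core of the HIF-1 binding motif (ACGTG, searched on both strands) was counted in the promoters that RefSeq gives (GRCm38.p6, 250 bases before to 50 after the start). It was in 9 of 14 hypoxia promoters (64.3%) and in 10 of 21 glycolysis promoters (47.6%), against 26% of 8317 compared genes and 19.7% of all 27025 promoters. The promoters of Bnip3 and P4ha2 are shown, in the direction of the gene, with the motif in capitals on either strand.
Bnip3, chr7:138909457-138909756, minus strand: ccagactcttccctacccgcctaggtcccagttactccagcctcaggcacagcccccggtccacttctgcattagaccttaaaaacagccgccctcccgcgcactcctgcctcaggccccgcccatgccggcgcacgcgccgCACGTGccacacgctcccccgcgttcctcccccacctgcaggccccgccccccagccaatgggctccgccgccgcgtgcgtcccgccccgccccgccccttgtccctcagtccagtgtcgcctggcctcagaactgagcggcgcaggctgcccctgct
P4ha2, chr11:54100674-54100973, plus strand: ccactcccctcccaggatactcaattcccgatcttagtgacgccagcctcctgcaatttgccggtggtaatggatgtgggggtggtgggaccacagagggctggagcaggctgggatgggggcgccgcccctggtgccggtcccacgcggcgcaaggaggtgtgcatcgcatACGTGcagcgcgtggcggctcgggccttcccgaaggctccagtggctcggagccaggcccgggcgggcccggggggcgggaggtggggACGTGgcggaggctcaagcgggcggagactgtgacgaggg

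In the Bnip3 promoter the motif lies on both strands in an overlap, as a palindrome that begins at position -108, and in the P4ha2 promoter it begins at -78 and 10 (in bases from the start). The median log2 fold change of the hypoxia genes was -1.56 with and -0.67 without the motif, and in the glycolysis list it was -1.16 with and -1.22 without it. The hypoxia genes were listed as targets of HIF-1, so that their share with the motif follows in part from that choice and is no result of these data. A match is a description of the letters and not of binding.

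Most tested mitochondrial and lipid genes rose. Of 75 subunit genes of oxidative phosphorylation 45 rose, 4 fell and 26 were not called (median log2 fold change 0.35). The changes were small: Ndufc2, a complex I subunit gene, stood at 178, 153 and 180.5 FPKM in the day 9 libraries and 444, 373 and 361 FPKM in the NSC libraries (log2 fold change 1.20 ± 0.13 (SE), adjusted p = 4.46e-08) and Uqcrq, of complex III, rose from 210.3 ± 14.8 to 445 ± 5.92 FPKM. Cox7a1, a tissue-specific subunit gene of complex IV, fell from 15.2 ± 5.07 to 2.88 ± 2.71 FPKM. Of the genes of lipid transport and oxidation 12 of 21 tested members rose, 5 fell and 4 were not called, with a median log2 fold change of 0.49. Cpt1a, which encodes the carnitine transferase that controls entry of fatty acids into mitochondria, stood at 2.72, 2.95 and 3.66 FPKM in the day 9 libraries and 36.6, 61.2 and 51.8 FPKM in the NSC libraries (log2 fold change 3.61 ± 0.21 (SE), adjusted p = 2.45e-12). Acadl, an acyl-CoA dehydrogenase gene, stood at 9.93, 13.3 and 10.1 FPKM in the day 9 libraries and 121, 169 and 131 FPKM in the NSC libraries (log2 fold change 3.54 ± 0.23 (SE), adjusted p = 2.62e-11). Fabp3 fell from 82.3 ± 21.0 to 4.00 ± 2.41 FPKM. The 15 genes of fatty acid synthesis gave 9 rises, 1 fall and 5 not called. Of these 8 rose and 3 fell without NSC replicate 1. Among those that rose were Me1, the malic enzyme gene (from 3.95 ± 0.809 to 58.2 ± 9.37 FPKM), and the entry of Scd2 and Mir5114 (from 228 ± 33.7 to 681 ± 85.8 FPKM). Fasn, the fatty acid synthase gene, stood at 48.1, 60.0 and 51.4 FPKM in the day 9 libraries and 89.7, 36.7 and 42.4 FPKM in the NSC libraries and was not called (adjusted p = 0.92) except, lower, without NSC replicate 1 (adjusted p = 0.015).

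The genes of cholesterol synthesis and uptake depended on NSC replicate 1. With all libraries 4 of 21 rose, 4 fell and 13 were not called, without NSC replicate 1 2 rose and 12 fell, and in a fit of the 6 libraries alone 3 rose and none fell. The list median lay 0.69, -0.81 and -0.26 from the day 9 mean in NSC replicates 1, 2 and 3. Insig1, a sterol-regulated gene, stood at 61.0, 65.3 and 62.5 FPKM in the day 9 libraries and 206, 71.5 and 74.2 FPKM in the NSC libraries (log2 fold change 0.70 ± 0.28 (SE), adjusted p = 0.038). It was not called without NSC replicate 1 (log2 fold change 0.21, adjusted p = 0.37), and leaving out any 1 day 9 library or fitting the 6 libraries alone (adjusted p = 0.17) also lost the call. Fdps, of the mevalonate pathway, stood at 189, 247 and 198 FPKM in the day 9 libraries and 383, 119 and 179 FPKM in the NSC libraries and was called, lower, only without NSC replicate 1 (adjusted p = 0.87 with it and 0.025 without it). NSC replicate 1 had the highest level of the 6 libraries for both genes, and NSC replicates 2 and 3 lay below the day 9 libraries for Fdps. Without day 9 replicate 2, day 9 replicate 3 or NSC replicate 3, 4, 5 and 5 members were called. In the KO libraries 15 rose and none fell.

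The integrated stress response and serine synthesis list, which holds targets of ATF4, also split the NSC libraries. Of the list 19 of 33 tested members rose, 1 fell and 13 were not called, with a median log2 fold change of 0.73. Without NSC replicate 1 25 rose and 1 fell, and in a fit of the 6 libraries alone 9 rose and 1 fell. The list median lay -0.17, 1.16 and 1.28 from the day 9 mean in NSC replicates 1, 2 and 3. Pck2, the mitochondrial PEP carboxykinase gene, stood at 8.46, 10.4 and 9.88 FPKM in the day 9 libraries and 15.7, 83.6 and 87.4 FPKM in the NSC libraries (log2 fold change 2.25 ± 0.43 (SE), adjusted p = 1.93e-04). Slc6a9, a glycine transporter gene, stood at 7.42, 7.77 and 7.21 FPKM in the day 9 libraries and 8.97, 59.5 and 68.2 FPKM in the NSC libraries (log2 fold change 2.04 ± 0.47 (SE), adjusted p = 9.57e-04, and 0.0505 in a fit of the 6 libraries alone). Psph, of serine synthesis, stood at 14.8, 16.7 and 14.4 FPKM in the day 9 libraries and 40.7, 104 and 84.1 FPKM in the NSC libraries (log2 fold change 2.15 ± 0.25 (SE), adjusted p = 1.85e-07). In each the NSC libraries were above the day 9 libraries and replicate 1 was lowest. Asns, the asparagine synthetase gene, stood at 97.6, 104 and 105.1 FPKM in the day 9 libraries and 48.5, 274 and 288 FPKM in the NSC libraries. It lay below the day 9 libraries in NSC replicate 1 and above them in replicates 2 and 3, so that it was called only without replicate 1 (adjusted p = 0.24 with it and 1.29e-06 without it). Gdf15, a secreted factor induced by this response, stood at 0.583, 0.597 and 0.405 FPKM in the day 9 libraries and 4.96, 3.44 and 11.0 FPKM in the NSC libraries (log2 fold change 2.16 ± 0.33 (SE), adjusted p = 1.00e-05). In the KO libraries 8 rose and 5 fell.

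The composite motif that ATF4 and a C/EBP partner bind (TGATGNAA, on both strands) was in 10 of 26 promoters of this list (38.5%), against 2.14% of compared genes and 4.06% of all promoters. As the list was chosen to hold targets of ATF4, this share follows in part from that choice and is no result of these data. The motif is shown in capitals in the promoters of Pck2 and Slc7a11, the latter a cystine transporter gene that was chosen for the motif after its values were seen and stood at 0.228, 0.525 and 0.396 FPKM in the day 9 libraries and 1.18, 6.73 and 7.92 FPKM in the NSC libraries (log2 fold change 1.95 ± 0.31 (SE), adjusted p = 1.37e-05).
Pck2, chr14:55540016-55540315, plus strand: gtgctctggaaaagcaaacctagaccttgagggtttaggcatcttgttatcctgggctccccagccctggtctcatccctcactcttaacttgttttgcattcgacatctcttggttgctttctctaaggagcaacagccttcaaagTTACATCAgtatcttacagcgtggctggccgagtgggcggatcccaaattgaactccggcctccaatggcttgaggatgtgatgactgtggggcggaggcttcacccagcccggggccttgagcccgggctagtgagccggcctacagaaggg
Slc7a11, chr3:50443564-50443863, minus strand: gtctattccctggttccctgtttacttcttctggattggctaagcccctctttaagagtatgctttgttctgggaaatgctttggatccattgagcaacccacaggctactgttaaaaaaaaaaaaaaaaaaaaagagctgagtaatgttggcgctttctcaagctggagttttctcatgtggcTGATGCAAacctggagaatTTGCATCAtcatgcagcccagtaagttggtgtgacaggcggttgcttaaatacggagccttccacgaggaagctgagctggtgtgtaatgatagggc

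The Pck2 promoter holds it at position -103 from the start, on the opposite strand, and the Slc7a11 promoter at -66 and -47. The median log2 fold change of the list was 0.73 with and 0.78 without the motif. Of the genes of the unfolded protein response, a neighbouring stress pathway, 1 of 16 rose, 8 fell and 7 were not called. Hspa5, the BiP chaperone gene, stood at 293, 347 and 339 FPKM in the day 9 libraries and 213, 138 and 126 FPKM in the NSC libraries (log2 fold change -1.07 ± 0.17 (SE), adjusted p = 1.73e-05). Xbp1 fell from 48.9 ± 4.82 to 21.1 ± 0.666 FPKM.

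**Figure D4:**
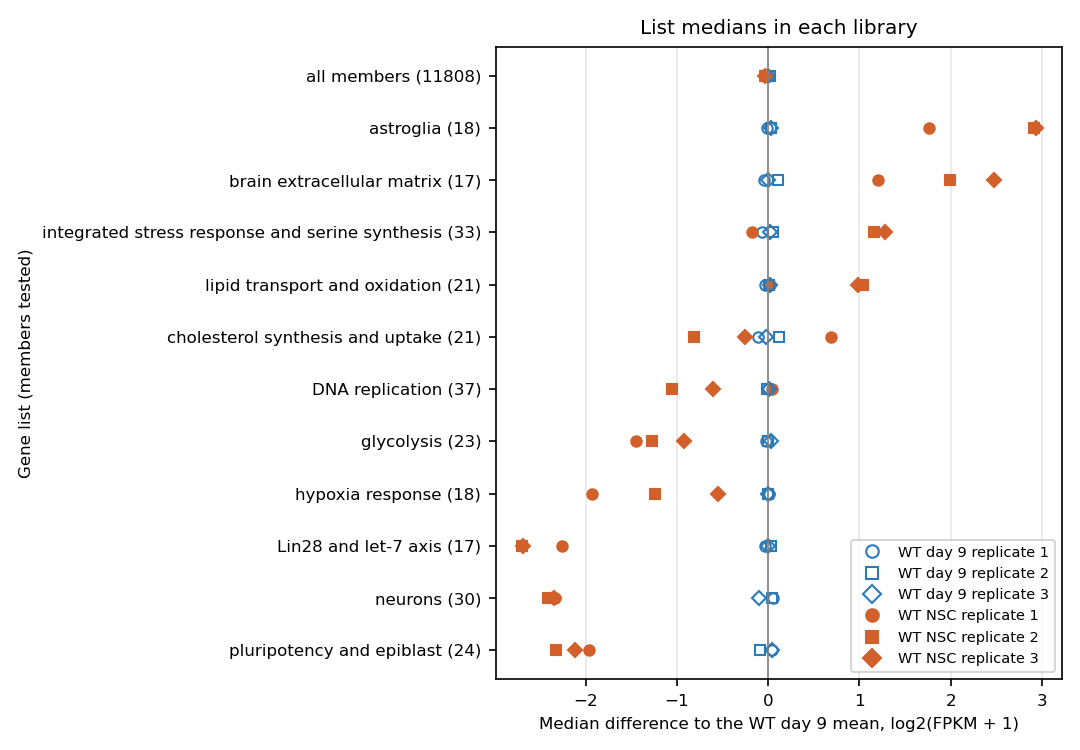
Each point is the median, over the tested members of a gene list (number in brackets), of the log2(FPKM + 1) difference between 1 WT library and the mean of the 3 WT day 9 libraries. For the integrated stress response list the NSC points are -0.17, 1.16 and 1.28 in replicates 1, 2 and 3, with replicate 1 among the day 9 points, while for the Lin28 and let-7 list they are -2.26, -2.70 and -2.68.

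Several CDK inhibitor genes rose, and most genes of DNA replication fell. In the list of G1 cyclins and CDK inhibitors 6 rose, 6 fell and 9 were not called (median log2 fold change 0.03). Cdkn2a, which encodes p16 and p19ARF from overlapping frames, stood at 1.65, 1.69 and 2.70 FPKM in the day 9 libraries and 54.8, 44.7 and 47.4 FPKM in the NSC libraries (log2 fold change 4.06 ± 0.26 (SE), adjusted p = 2.41e-11). Cdkn2c, the p18 gene, rose from 5.43 ± 0.766 to 46.0 ± 0.900 FPKM, and Cdkn1c, the p57 gene, which is imprinted, fell from 13.7 ± 4.06 to 0.457 ± 0.208 FPKM. Cdk4 was not called (640.1 and 586 FPKM). Of 17 p53 target genes 7 rose, 1 fell and 9 were not called. Of these 7 rose and 3 fell without NSC replicate 1. Cdkn1a, the p21 gene, stood at 41.4, 50.3 and 47.3 FPKM in the day 9 libraries and 204, 93.9 and 137 FPKM in the NSC libraries (log2 fold change 1.56 ± 0.22 (SE), adjusted p = 3.22e-06), Plk2 rose from 18.5 ± 5.90 to 70.8 ± 45.8 FPKM. Ccng1 was not called (53.3 and 63.9 FPKM).

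Of 37 DNA replication genes none rose, 24 fell and 13 were not called (median log2 fold change -0.57), without NSC replicate 1 none rose and 34 fell, without NSC replicate 2 13 fell, and in a fit of the 6 libraries alone 6 fell. Uhrf1, which brings the maintenance methyltransferase to replicated DNA, stood at 113, 119 and 114 FPKM in the day 9 libraries and 106, 27.6 and 47.9 FPKM in the NSC libraries (log2 fold change -1.13 ± 0.26 (SE), adjusted p = 0.001, and 0.061 in a fit of the 6 libraries alone). Pcna, the sliding clamp gene, stood at 403, 397 and 420.0 FPKM in the day 9 libraries and 534, 206 and 303 FPKM in the NSC libraries and was not called with all libraries (adjusted p = 0.18) but was lower without NSC replicate 1 (adjusted p = 4.62e-04). NSC replicate 1 was the highest NSC library for both genes, and the list median lay 0.04, -1.05 and -0.60 from the day 9 mean in NSC replicates 1, 2 and 3. Of 24 mitosis genes 16 fell and none rose. Ccnb2 (from 91.5 ± 4.56 to 42.2 ± 3.42 FPKM) and Bub1 (from 32.3 ± 4.07 to 15.5 ± 3.55 FPKM) had the largest falls and Birc5 was not called (134 and 133 FPKM). Of the 78 ribosomal protein genes 1 rose, 40 fell and 37 were not called, with a median log2 fold change of -0.34, and in KO 1 rose and 76 fell. Rpl5 fell from 1021 ± 83.0 to 632 ± 56.1 FPKM, and Rpl38 and Rpl41, among the 6 most abundant genes of both stages, were not called, though Rpl41 was lower without NSC replicate 1 (adjusted p = 0.15 with it and 0.044 without it). Ribosomal protein genes have many processed pseudogenes that could share reads.

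Among chromatin genes the changes were mostly small. Smchd1, the gene mutated in the KO line, stood at 22.3, 21.9 and 21.8 FPKM in the day 9 libraries and 21.4, 16.5 and 16.1 FPKM in the NSC libraries and was not called (adjusted p = 0.06, and 0.0091 without NSC replicate 1). In the list of SMC complexes and CTCF, 1 of 19 members rose, 6 fell and 12 were not called, and without NSC replicate 1 none rose and 10 fell. Of the BAF subunits 6 rose, 10 fell and 5 were not called (median log2 fold change -0.24). Smarcd3 (from 5.52 ± 0.106 to 33.9 ± 8.08 FPKM), Bcl11a (from 1.72 ± 0.271 to 8.34 ± 1.66 FPKM) and Smarca2 (from 8.72 ± 0.471 to 24.4 ± 4.82 FPKM) were higher. In the Polycomb list 4 rose, 13 fell and 11 were not called (median log2 fold change -0.22), with Cbx2 (from 30.6 ± 1.90 to 11.6 ± 4.597 FPKM) and Mtf2 (from 23.4 ± 0.530 to 9.24 ± 2.95 FPKM) lower. Of the DNA methylation genes 2 rose, 6 fell and 8 were not called (median log2 fold change -0.22), where Dnmt3b, the de novo methyltransferase gene, fell from 7.52 ± 0.663 to 1.22 ± 0.828 FPKM. Of the lamina and linker histone genes 5 rose, 10 fell and 3 were not called (median log2 fold change -0.44). Lmna, the lamin A gene, rose from 5.85 ± 0.852 to 15.4 ± 6.33 FPKM. The linker histone gene Hist1h1c rose from 7.31 ± 2.54 to 71.9 ± 27.7 FPKM.

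Imprinted genes were lower in NSCs in 19 of 35 cases, higher in 3 and not called in 13 (median log2 fold change -0.89). Of the maternally expressed non-coding RNAs of the Dlk1-Dio3 domain, the entry of Meg3 (chr12:110779206-110809939) stood at 170.2, 192 and 176 FPKM in the day 9 libraries and 0.785, 0.761 and 0.421 FPKM in the NSC libraries (log2 fold change -6.77 ± 0.33 (SE), adjusted p = 6.14e-13) and Rian (chr12:110842155-110899921) at 152, 165 and 164 FPKM in the day 9 libraries and 0.675, 0.423 and 0.732 FPKM in the NSC libraries (log2 fold change -6.65 ± 0.21 (SE), adjusted p = 1.93e-16). Both were close to 0 in all NSC libraries. Plagl1, a zinc finger gene expressed from the paternal allele, fell from 56.2 ± 6.37 to 1.04 ± 0.642 FPKM. Gnas was not called (864 and 971 FPKM). The parental alleles were not separated in these values.

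Of 16 genes of antigen presentation and the interferon response 4 rose, 6 fell and 6 were not called (median log2 fold change -0.20), and the interferon-induced membrane protein genes Ifitm1 (from 25.0 ± 7.82 to 0.374 ± 0.373 FPKM) and Ifitm3 (from 54.6 ± 3.81 to 9.54 ± 6.87 FPKM) and Bst2 (from 18.8 ± 4.77 to 0.861 ± 0.201 FPKM) fell. Of the metallothionein and oxidative stress genes 10 rose, 6 fell and 5 were not called (median log2 fold change 0.25). Mt1 stood at 124, 109.9 and 139 FPKM in the day 9 libraries and 223, 861 and 1019.9 FPKM in the NSC libraries (log2 fold change 2.22 ± 0.42 (SE), adjusted p = 1.75e-04) and Gstm1 rose from 24.5 ± 1.97 to 206 ± 69.4 FPKM. Gpx3 fell from 52.6 ± 9.44 to 0.995 ± 0.929 FPKM. Of 28 lysosome genes 16 rose, 3 fell and 9 were not called, with Cd63 (from 131 ± 11.5 to 525 ± 60.2 FPKM) and the cystatin C gene Cst3 (from 155 ± 3.65 to 494 ± 180.0 FPKM) higher and Ctsz lower (from 62.8 ± 4.89 to 7.54 ± 0.934 FPKM). The most abundant genes of NSCs were Eef1a1, the entry Mir682, Ckb, Rpl41, Fabp7 and Rpl38. Ckb, the brain creatine kinase gene, stood at 870.4, 893 and 865 FPKM in the day 9 libraries and 4817, 5230.2 and 4625 FPKM in the NSC libraries (log2 fold change 2.48 ± 0.15 (SE), adjusted p = 6.54e-12), and Eef1a1, the elongation factor gene, at 5610.4, 5301 and 6006 FPKM in the day 9 libraries and 6343, 7434 and 6482 FPKM in the NSC libraries (adjusted p = 0.055, and 0.044 without NSC replicate 1).

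In the KO line 7064 of the same genes (59.8%) were called between NSCs and day 9 cells, 3374 higher and 3690 lower. The KO levels come from other libraries than the WT levels, but both tests came from the same fit and share its estimate of the spread. The calls in KO and WT are therefore not wholly independent. Of the WT calls 5425 were called in the same direction in KO, which was 81.8% of the 6628 WT calls and 76.8% of the KO calls, and 62 were called in opposite directions. The test of the difference between KO and WT called 763 genes (6.46%), 435 with a higher and 328 with a lower change in KO, and 2262 genes had an unadjusted p under 0.05. Without WT NSC replicate 1 it called 1356 genes, of which 714 were among the 763. When the libraries were scaled to the same sum of FPKM, 4599 genes were higher and 2582 lower in KO NSCs, and 720 genes had a higher and 223 a lower change in KO than in WT. The KO line, like the WT line, is 1 line, so that a difference of genotype and any other difference between the lines cannot be told apart.

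Of the gene lists, the 6 with the largest share of members called in the test of the difference are given, to be read against the 6.46% of all genes. The members were kept by their WT levels alone, so that genes with a high level in KO only are not counted. Of 6 dorsal neural tube genes none rose and 6 fell in KO and 5 were called in the test of the difference, and of 13 Hox genes 3 rose and 5 fell and 10 were called. Of 18 ventral neural tube genes 6 rose and 10 fell in KO and 12 were called, and of 18 midbrain and hindbrain genes 2 rose and 13 fell and 12 were called. Of 10 endoderm genes none rose and 7 fell in KO and 6 were called, and of 16 Hedgehog pathway genes 1 rose and 9 fell and 8 were called. A WT NSC mean below 1 FPKM was found for 2 of the 6 dorsal, 5 of the 13 Hox and 12 of the 18 ventral genes. The same held for 6 of the 18 midbrain and hindbrain, 8 of the 10 endoderm and 5 of the 16 Hedgehog genes. Such members passed through WT day 9 and had to fall in WT, so that these counts lean towards a difference. Counts with no filter are not given by list for this test. No member was called in the lists of endothelium, BAF subunits, oxidative phosphorylation, DNA replication, SMC complexes and CTCF, and microglia and blood cells (with 1 tested member). The Lin28 and let-7 axis (17 of 17 fell), the pluripotency list (1 rose and 21 fell), the astroglia list (14 rose and none fell) and the neurons (none rose and 25 fell) moved mostly in the same directions in KO as in WT. In these lists 4 of 17, 3 of 24, 4 of 18 and 6 of 30 members were called in the test of the difference.

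Of the genes with the largest difference, Nkx6-1, Foxa2, Isl1 and Col3a1 had a lower change in WT than in KO. In KO, Nkx6-1 stood at 4.73, 27.6 and 6.83 FPKM at day 9 and at 2.101, 8.70 and 1.12 FPKM in NSCs (difference of the log2 fold changes 4.79 ± 0.77 (SE), adjusted p = 5.99e-04). Foxa2 stood at 2.42, 11.0 and 2.22 FPKM at day 9 and 0.543, 2.24 and 1.67 FPKM in NSCs in KO (adjusted p of the difference 1.00e-04). The KO levels of Isl1 were 0.309, 2.57 and 0.920 and 0.0900, 0 and 0 FPKM (adjusted p of the difference 7.47e-07). Those of Col3a1 were 0.368, 0.851 and 0.616 and 8.86, 0.384 and 0.367 FPKM (4.22 ± 0.91 (SE), adjusted p = 0.0073, and 0.095 in a fit of only the groups compared). For Nkx6-1, Foxa2, Isl1 and Col3a1 every KO day 9 library was below every WT day 9 library.

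Of the genes with a lower change in KO, Pax3 stood at 35.1, 26.6 and 43.6 FPKM at day 9 and 3.36, 2.91 and 4.51 FPKM in NSCs in KO (-4.02 ± 0.51 (SE), adjusted p = 3.88e-05), and its KO day 9 level was above that of WT. Mfap2, which encodes a microfibril protein, fell from 69.0, 66.9 and 71.1 to 20.7, 24.9 and 20.7 FPKM in WT and from 57.0, 61.0 and 55.7 to 1.47, 0.220 and 0.420 FPKM in KO (-3.57 ± 0.27 (SE), adjusted p = 5.14e-08), and KO was below WT in every library at both stages. Ptn stood at 196, 101 and 124 and 473, 491 and 509.6 FPKM in KO (-3.37 ± 0.30 (SE), adjusted p = 8.08e-07), with overlapping levels in NSCs and a higher one in KO at day 9. Rab3b, a vesicle transport gene, stood at 2.198, 2.25 and 2.00 FPKM in the day 9 libraries and 38.3, 9.28 and 13.3 FPKM in the NSC libraries in WT and at 3.11, 2.25 and 1.68 and 1.81, 1.38 and 0.804 FPKM in KO (-3.03 ± 0.50 (SE), adjusted p = 5.25e-04).

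**Figure D5:**
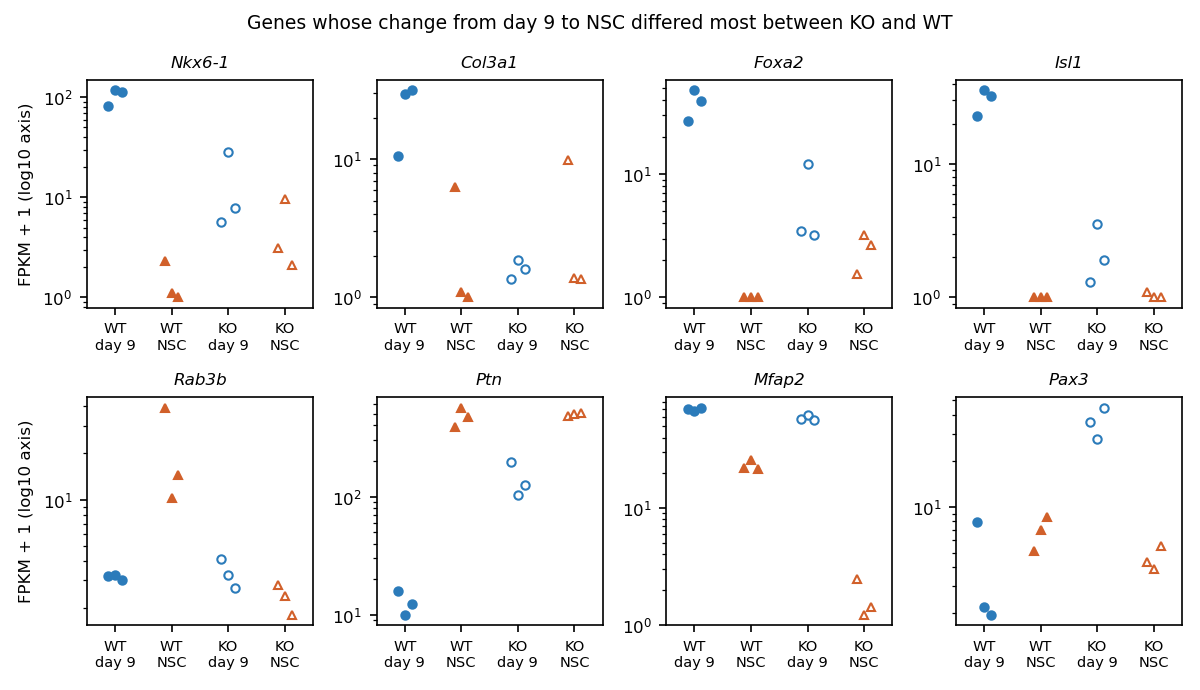
Each panel is a gene, with FPKM + 1 on a log10 axis for the 3 libraries of WT day 9, WT NSC, KO day 9 and KO NSC (circles day 9, triangles NSC, filled WT, open KO). For Nkx6-1, Col3a1, Foxa2 and Isl1 the KO day 9 points lie below the WT day 9 points, and for Pax3 and Ptn above them, with KO day 9 values of 35.1, 26.6 and 43.6 FPKM for Pax3 and 196, 101 and 124 FPKM for Ptn.

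By chromosome, the median log2 fold change of the compared genes with a mean of at least 5 FPKM lay within 0.07 of 0 for all autosomes but chromosomes 16 and 11. On chromosome 16, where Olig1 and Olig2 lie, the median over 295 genes was -0.17, and on chromosome 11 it was 0.11 over 790 genes. In the KO line the medians were 0.04 for chromosome 16 and -0.07 for chromosome 11, and the medians of the difference between the lines were 0.18 and -0.13. By library, the chromosome 16 median of the difference to the mean of the 6 libraries was 0.12, 0.10 and 0.04 in the day 9 libraries and -0.01, -0.11 and -0.08 in the NSC libraries. That of chromosome 11 was -0.05, -0.05 and -0.06 in day 9 replicates 1 to 3 and 0.04, 0.05 and 0.08 in NSC replicates 1 to 3. The groups did not overlap for either chromosome. No test was made on these medians, and DNA copy number was not tested.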

How the data were processed

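Poly(A) RNA was sequenced as stranded libraries of single-end reads. Per the labels and the study's methods, the authors trimmed reads with Trim Galore 0.6.6, aligned them with TopHat2 2.1.1 to mouse mm9, left out reads of rRNA and of the X chromosome, and deposited FPKM per gene from Cufflinks and Cuffdiff, 1 column per library. The strand setting and the library normalization were not given in the sources used here. The table holds 36 FPKM columns, of which 12 belong to no library of the 24 used here and were not used.

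Genes outside X and Y with a mean of at least 1 FPKM over the 6 WT day 9 and WT NSC libraries were kept. FPKM were tested as log2(FPKM + 1) with limma 3.58.1 in R 4.3.3, all 24 libraries in 8 groups of 3 (mESC, day 7, day 9 and NSC, WT and KO), eBayes (trend and robust), two-sided tests and Benjamini-Hochberg adjustment over the 11808 genes and calls at an adjusted p under 0.05. The fit was tested on simulated data. A fold change on this scale understates the change of low genes. Where all libraries of a stage were at 0, no fold change is given. An exact permutation test of 3 against 3 libraries cannot go below p = 0.1 and was not used. The labels do not say how far back the replicates were separate cultures. The p-values measure the spread within groups, pooled over all 24 libraries in the 8 groups, which may in part be technical. They do not measure the spread of the 6 compared libraries alone, and a fit of these 6 called 5542 genes. In the low genes 95.26% of 31400 values above 0 were whole multiples of the value of 1 read (tolerance 0.05 reads), from which relative depth was read.

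Genes were named by a rule: the 12 largest rises and falls without overlap between the stages, the study's markers with Smchd1, in each list up to 4 called members with the largest change and the most abundant tested one not called, the 6 most abundant genes of each stage, and the 4 largest differences between KO and WT in each direction. Changed genes so named had a mean of at least 5 FPKM in the higher group. Not all genes that the rule picks are described. The members, the lists and the rule were chosen with earlier results of these data known. Matches to seeds were counted in the longest annotated 3' UTR of each gene (GENCODE, mm9), and RefSeq promoters and mature microRNAs were matched by symbol. Alternatives were the pseudocount, the filter, the libraries in the fit, the scaling, the variance model, a replicate block and leaving out each library. 1 gene (Serbp1), whose estimate carries a failed status in 5 libraries outside WT day 9 and WT NSC, was kept with its listed values.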

Additional observations from a re-analysis of the deposited data

Results flagged for a closer look

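Of the 763 genes whose change from day 9 to NSC differed between the KO and the WT line by the test of the difference (limma, adjusted p under 0.05), the report gives the difference itself for 8. The difference of the log2 fold changes, KO less WT, was 4.79 for Nkx6-1 and 4.22 for Col3a1, and it was -4.02 for Pax3, -3.57 for Mfap2, -3.37 for Ptn and -3.03 for Rab3b. For Foxa2 and Isl1, listed at 0 in all WT NSC libraries, no size is given, and the adjusted p of the difference was 1.00e-04 and 7.47e-07. Col3a1 lost its call in a fit of only the groups compared (adjusted p = 0.095). The genes were chosen as the largest differences, so that their sizes are a description. For Col3a1 the highest NSC library was replicate 1 in both lines. Groups of 3 libraries are too small for a test of single outlying libraries.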

How the results depend on the processing

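Of the 187 called genes with values in the text, 179 kept their direction and stayed past the threshold under every alternative they were tested in, and the other 8 lost the call under at least 1 of them and reversed under none. In a fit of the 6 libraries alone the calls of Insig1 (adjusted p = 0.17), Pax3 (0.14), Pax6 (0.12), Slc6a9 (0.0505) and Uhrf1 (0.061) were lost, and with the replicate block as well those of Cox7a1 (0.053), Igfbp3 (0.079), Insig1 (0.14), Pax3 (0.16), Pax6 (0.18), Plk2 (0.053) and Slc6a9 (0.051). That of Pax6 was also lost with log2(FPKM + 0.1) (0.13) and with libraries scaled to the same sum (0.0501), and leaving out 1 library lost those of Insig1, Pax3 and Pax6. The difference between KO and WT for Col3a1 was lost with only the groups compared (0.095, and 0.13 with the block). The count of WT NSC against WT day 9 lay between 5967 and 7007 when 1 library was left out and between 4924 and 7876 under the other settings, against 6628. That of KO NSC against KO day 9 lay between 6482 and 6648, and between 5372 and 8326, against 7064. The count of genes that differed between the lines lay between 505 (without WT day 9 replicate 2) and 1356 (without WT NSC replicate 1) and fell to 431 with a filter at a mean of 5 FPKM, where fewer genes were tested. Same-numbered WT day 9 and NSC libraries did not deviate together (correlations of -0.05, -0.07 and -0.05), so they share only a number. With the replicate number as a block the counts were 6635, 7095 and 762, or 4924, 7582 and 564 with only the libraries compared, and the block moved no list count by over 1.5 times except, with only the libraries compared, those of cholesterol synthesis, the integrated stress response, p53 targets, DNA replication, mitosis and ribosomal proteins. In the gene lists 923 of 974 counts under alternatives were within 1.5 times of the reported one, and most of the others came from filters that changed the members tested. Signs turned only among genes that were not called. With libraries scaled to the same sum the log2 fold change was 0.0308 for Birc5, 0.0232 for Ctnnb1, 0.0437 for Fasn, 0.0140 for Fdps, 0.0185 for Tjp1 and 0.0006 for Twist1. Leaving out 1 library gave log2 fold changes of -0.18 to 1.61 for Apoe, -0.24 to 0.13 for Birc5, -0.34 to 0.21 for Cd68, -0.12 to 0.0009 for Ctnnb1, -0.42 to 0.22 for Fasn, -0.52 to 0.32 for Fdps, -0.66 to 0.98 for Hes5, -0.15 to 0.21 for Id3, -0.0138 to 0.89 for Lims2, -0.23 to 0.0888 for Meis1, -0.0537 to 0.67 for Nes, -0.12 to 0.0779 for Tjp1 and -0.45 to 0.16 for Twist1. The causes were not tested. The same scaling moved the median of all genes from -0.04 to 0.02. At this depth a gene near 1 FPKM rests on few reads.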

Other observations

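Some values stand outside the comparisons above. The 3 markers below the level filter were low at day 9 and at or near 0 in NSCs: Gata4 stood at 0.268, 1.43 and 1.06 FPKM in the day 9 libraries and was listed at 0 in all NSC libraries, Gata6 stood at 0.172, 0.410 and 0.537 FPKM at day 9 and at 0, 0.0597 and 0 FPKM in NSCs, and Tbx6 stood at 0.793, 1.51 and 1.53 FPKM at day 9 and at 0.126, 0.472 and 0.584 FPKM in NSCs. In mESC libraries of the same WT line, Olig1 stood at 2.83, 4.79 and 2.16 FPKM, Crabp1 at 62.7, 23.6 and 32.7 FPKM and Lin28a at 29.0, 54.7 and 27.6 FPKM.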
